A study of Mus musculus with 2 samples.

Results

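Cell junction genes were examined in messenger RNA from whole mouse kidneys with acute kidney injury (AKI). They comprise the claudins, cadherins, catenins, gap junction connexins, desmosomal genes and the plaque and membrane genes of tight junctions. Members were chosen by symbol alone, without regard to their values. The rule matched 111 symbols in the list of genes of GRCm38.p6, of which 69 had a row among the 19829 genes of the deposited table. The other 42 were not analysed here, among them *Cldn14*, a claudin of the thick ascending limb.

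The data consisted of 2 libraries, 1 from a wild-type (WT) kidney, called WT+AKI, and 1 from a kidney of a mouse with proximal tubule-specific overexpression of *Inmt*, called TG+AKI. Per the methods of the study, C57BL/6 mice of both genotypes received voclosporin, a calcineurin inhibitor, at 30 mg/kg daily by intraperitoneal injection from 8 to 10 weeks of age. Bilateral renal ischemia for 30 min followed in males at 14 weeks, and kidneys were collected 24 h or 48 h later, the figure legend and the methods differing on this. The results text of the same paper speaks of 6 weeks of voclosporin before ischemia. Both libraries therefore share strain, drug and ischemia and are set apart by genotype. The sources also conflict in places: both samples carry a treatment entry of none, while the series design names voclosporin, and the title of the TG sample mentions a conditional knockout beside the transgene. The comparison addressed which kidney transcripts differed between the genotypes after this injury. No library of an uninjured kidney was among the samples, and with 1 library per group no difference has a replicate check, so the spread between mice could not be measured. Counting error was the only error available.

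Epithelial cells are joined by several kinds of contact. Tight junctions seal the space between neighbours and, through claudins, set which ions cross it; occludin, the JAM proteins and the ZO scaffolds complete them. Adherens junctions join cells through cadherins, which bind catenins inside the cell, desmosomes tie intermediate filaments together, and connexins form channels from cell to cell. In the kidney the claudin makeup differs along the nephron. *Cldn2* and *Cldn10* are claudins of the proximal tubule, *Cldn10*, *Cldn16* and *Cldn19* of the thick ascending limb, and *Cldn3*, *Cldn4*, *Cldn7* and *Cldn8* of the distal nephron and collecting duct. *Cldn1* is known from the parietal cells of Bowman's capsule and from injured tubule.

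The libraries held 38542764 reads (WT+AKI) and 36427421 reads (TG+AKI) assigned to listed genes. The deposited value is a read count divided by a scaling factor, so that a value of 1 corresponded to 42.4 reads in the WT library and 33.1 in the TG library. *Inmt* stood at 10.4 in WT+AKI against 402.8 in TG+AKI, which matched the labels. Genes encoded by the mitochondrial genome took 13.2% of reads in WT+AKI and 18.9% in TG+AKI. All 8 proximal tubule markers were at least 2-fold higher in TG+AKI (summed value 2618 and 12266), so the labelled tissue was seen in both libraries, and all 8 markers of injured proximal tubule, *Havcr1* and *Lcn2* among them, were at least 2-fold lower (12407 and 788). These markers differed between the same 2 libraries as the genes described below, and their part in those differences was not tested. In whole tissue, fewer cells of a type and less RNA per cell cannot be told apart.

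Genes were compared where the value reached 1 in at least 1 library, which 56 of the 69 members did. A member was called higher or lower when it was 2-fold or more apart on the log2(value + 1) scale. Adding 1 makes the differences of low genes smaller than their ratios. In TG+AKI 3 members were called higher (*Cdh13*, *Cldn10* and *Cldn8*), or 5.36% of the 56, where 5.23% of all 14997 genes compared were called higher. In TG+AKI 10 members were called lower (*Cldn4*, *Cldn3*, *Cldn1*, *Cldn23*, *Cldn7*, *Cdh3*, *Jam2*, *Gja1*, *Dsp* and *Cgn*), or 17.9%, where 7.67% of all genes were called lower. The remaining 43 members stayed within 2-fold on this scale. Among them *Cdh24* (90 and 24 reads) and *Cldn6* (138 and 48 reads) were more than 2-fold lower in ratio, at 0.341 (0.208 to 0.540) and 0.445 (0.314 to 0.623). Below 0 lay 39 of the 56 members, and 7696 of all 14997 genes compared. The median log2 fold change of the members was −0.34 against −0.02 over all genes. Just short of the threshold lay *Pkp2* at −0.96 and *Pkp4* at 0.82. Reads of 49 members differed between the libraries at an adjusted p under 0.05 in the exact binomial test, but so did those of 10854 genes (72.4%). That test compares the 2 libraries and not the conditions.

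The split between higher and lower calls depended on the scaling. On the deposited scale 40.5% of all calls were higher calls (784 higher, 1150 lower), and for the members 23.1%. With both libraries brought to the same column total, 22.3% of all calls were higher calls (491 higher, 1708 lower), and 1 member was called higher and 14 lower. With the median ratio of well expressed genes set to 1, the share was 30.3% (610 higher, 1401 lower), with 2 members higher and 13 lower. These scalings moved the median of all genes by −0.25 and −0.13, and the members' median lay 0.33 below that of all genes in both, as against 0.32 on the deposited scale. The calls of *Cldn4*, *Cldn3*, *Cldn1*, *Cldn23*, *Cldn7*, *Cdh3*, *Jam2*, *Gja1*, *Dsp*, *Cgn* and *Cdh13* held under all 3 other scalings. For the lower calls this could hardly be otherwise. The 2 scalings above moved genes down, and the third, DESeq2 size factors, moved the median of all genes by 0.02. *Dsp* and *Cgn* lay at the threshold, at −1.02 each on the deposited scale and −1.01 each with DESeq2 size factors. *Cldn8* was under 2-fold with equal column totals and with the median ratio set to 1, at log2 fold changes of 0.85 and 0.98. *Cldn10* was under 2-fold in the first of these, at 0.99.

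**Figure D1:**
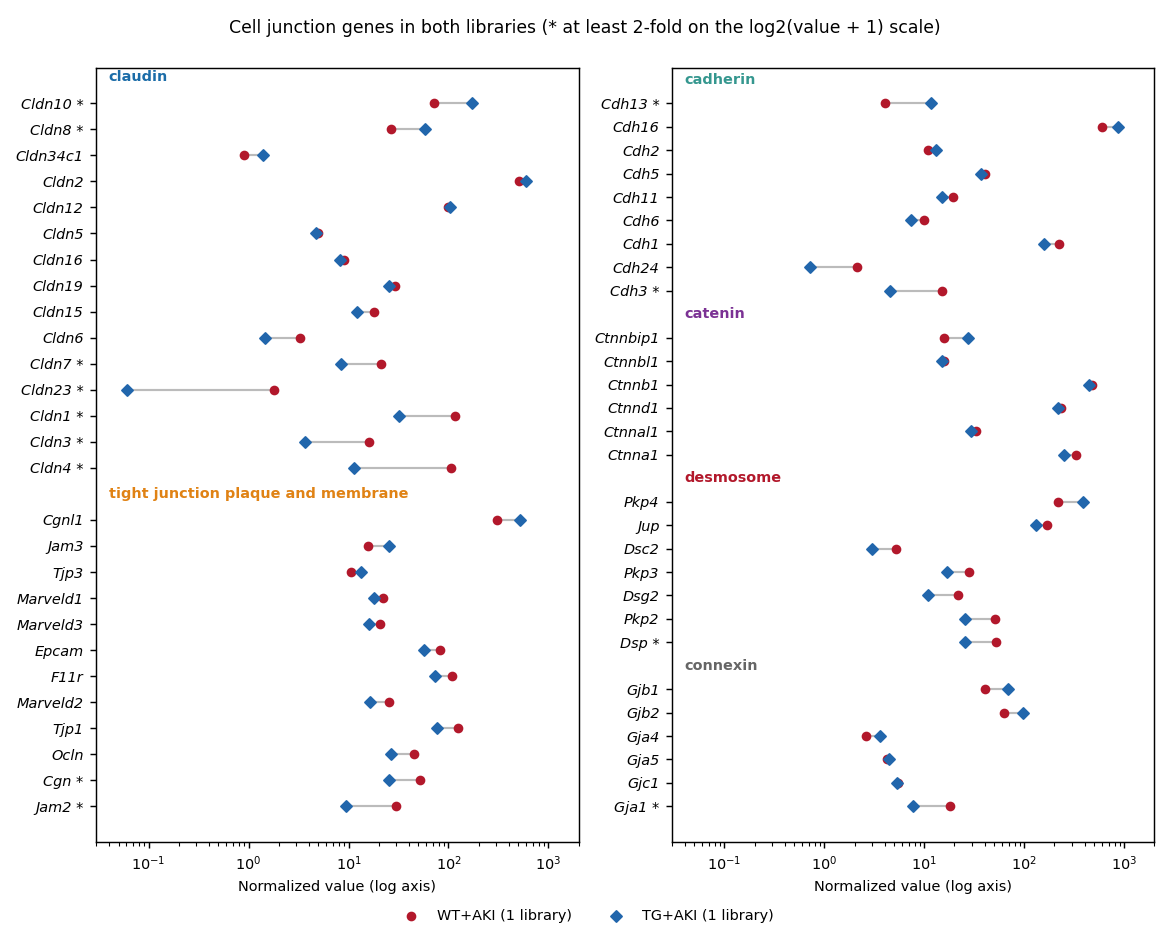
Normalized value (log axis) of 55 of the cell junction genes that reached 1 in at least 1 library, grouped by family, with a red circle for the WT+AKI library and a blue diamond for the TG+AKI library. An asterisk marks the 13 genes at least 2-fold apart on the log2(value + 1) scale, and the widest gaps at high values are those of *Cldn4* (105.9 and 11.3) and *Cldn1* (116.5 and 31.8).

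**Figure D2:**
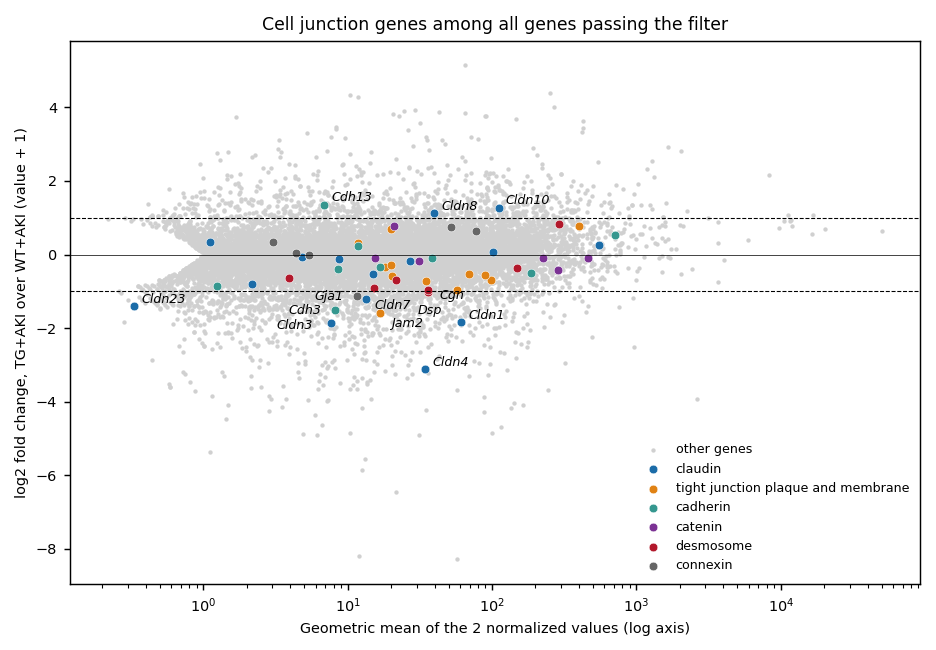
Log2 fold change of TG+AKI over WT+AKI against the geometric mean of both normalized values (log axis), with grey points for the other genes compared and coloured points for the cell junction families. Dashed lines mark 2-fold; 10 labelled junction genes lie below the lower line and 3 above the upper line.

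The claudins held the members that stood farthest apart. The promoter sequences of 3 of them, from RefSeq on GRCm38.p6, are shown here because *Cldn4* and *Cldn3* are neighbours that were both lower and *Cldn10*, higher, has more than 1 start. Each run covers the 250 bases before and the 50 bases from the annotated start, read 5′ to 3′ on the strand of the gene. Capitals mark matches on either strand to TGANTCA (AP-1), CAGGTG (an E-box bound by Snail and Zeb factors) or GTTAAT (the core of an HNF1 site).
*Cldn4*, chr5:134946885-134947184, minus strand: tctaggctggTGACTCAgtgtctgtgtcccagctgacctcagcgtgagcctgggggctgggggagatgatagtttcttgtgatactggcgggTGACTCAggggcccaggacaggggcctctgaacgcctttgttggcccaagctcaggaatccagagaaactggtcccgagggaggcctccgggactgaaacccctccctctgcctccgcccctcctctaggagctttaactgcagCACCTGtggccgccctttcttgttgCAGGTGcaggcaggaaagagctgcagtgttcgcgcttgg
*Cldn3*, chr5:134985964-134986263, plus strand: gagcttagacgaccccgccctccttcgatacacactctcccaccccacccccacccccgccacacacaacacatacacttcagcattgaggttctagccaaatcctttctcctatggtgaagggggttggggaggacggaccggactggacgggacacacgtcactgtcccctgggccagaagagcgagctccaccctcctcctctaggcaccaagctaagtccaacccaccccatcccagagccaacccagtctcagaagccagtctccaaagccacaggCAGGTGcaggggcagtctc
*Cldn10*, upstream start, chr14:118787621-118787920, plus strand: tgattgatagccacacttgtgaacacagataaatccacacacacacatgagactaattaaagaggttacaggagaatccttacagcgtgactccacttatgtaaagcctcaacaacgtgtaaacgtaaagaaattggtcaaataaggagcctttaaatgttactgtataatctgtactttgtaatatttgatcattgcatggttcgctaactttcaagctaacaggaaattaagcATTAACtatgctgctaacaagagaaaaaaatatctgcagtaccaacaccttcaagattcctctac
*Cldn10*, downstream start, chr14:118854700-118854999, plus strand: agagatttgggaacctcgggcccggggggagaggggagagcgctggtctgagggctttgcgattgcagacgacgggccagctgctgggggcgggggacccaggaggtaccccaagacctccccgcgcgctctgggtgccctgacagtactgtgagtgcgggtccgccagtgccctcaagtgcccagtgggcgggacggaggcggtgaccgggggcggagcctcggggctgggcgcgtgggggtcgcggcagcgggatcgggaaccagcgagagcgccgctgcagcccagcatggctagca

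The *Cldn4* window held the AP-1 letters at positions −240 to −234 and −158 to −152 from the start, and the E-box at −14 to −9 and 11 to 16. The *Cldn3* window held the E-box at 31 to 36, the upstream *Cldn10* window the HNF1 core at −15 to −10, and the downstream *Cldn10* window none of the motifs. Also searched were GGAATG (TEAD) and AACCGGTT (GRHL); no matches printed above overlap. Promoter windows were matched for 44 of the 69 members. Of the 7 called lower that had one, 2 held the AP-1 letters (*Cldn4* and *Gja1*), 4 the E-box, 1 the TEAD letters, 1 the HNF1 core and 0 the GRHL letters. Of the 29 that were not called, 3 held the AP-1 letters, 9 the E-box, 9 the TEAD letters, 1 the HNF1 core and 0 the GRHL letters. Among all 27025 genes with such a window the shares were 8.97% for AP-1, 22.6% for the E-box, 16.6% for TEAD, 8.24% for HNF1 and 0.174% for GRHL. A match of letters is a description of the window and not a site of binding.

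*Cldn4* encodes a barrier-forming claudin of the distal nephron and collecting duct (Gene ID 12740, chr5:134945123-134946934). Its value was 105.9 (4488 reads) in WT+AKI against 11.3 (373 reads) in TG+AKI, or 9.40-fold lower (95% interval 8.45 to 10.5, counting error only, as for all intervals here). No other member compared had a log2 fold change as low as its −3.12. Per kilobase of transcript it ranked 5 among the 69 members in WT+AKI against 30 in TG+AKI. *Cldn3*, a claudin of the distal nephron that lies 39.3 kb from *Cldn4* (Gene ID 12739, chr5:134986214-134987476), stood at 16.0 (678 reads) in WT+AKI against 3.65 (121 reads) in TG+AKI, or 4.38-fold lower (3.60 to 5.36). Both neighbours were thus lower, *Cldn4* by the larger fold, and 3.18% of the *Cldn3* exon bases overlapped another gene. *Cldn7*, another claudin of the distal nephron, stood at 21.0 in WT+AKI against 8.42 in TG+AKI, or 2.49-fold lower (2.18 to 2.86).

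*Cldn8*, which acts with *Cldn4* as a chloride pathway in the collecting duct, went the other way. It stood at 26.6 (1129 reads) in WT+AKI against 58.9 (1951 reads) in TG+AKI, a ratio of 2.21 (2.05 to 2.38). Within a library, where scaling plays no part, the ratio of *Cldn8* to *Cldn7* per kilobase was 0.719 in WT+AKI against 3.96 in TG+AKI, a change of 5.51-fold (4.73 to 6.42). The 4 markers of collecting duct principal cells had a summed value of 247.0 in WT+AKI against 329.3 in TG+AKI, with none of them called in either direction. Their ratios ran from 1.16 (*Aqp2*) to 2.11 (*Avpr2*, 1.83 to 2.43), and the interval of *Avpr2* overlapped that of *Cldn8*. *Cldn4*, *Cldn3* and *Cldn7* thus lay below all 4 markers in ratio, while *Cldn8* was not set apart from the highest of them.

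*Cldn1* (Gene ID 12737, chr16:26356645-26371839), which encodes a barrier claudin, stood at 116.5 (4940 reads) in WT+AKI against 31.8 (1052 reads) in TG+AKI, or 3.67-fold lower (3.43 to 3.92). Its neighbour *Cldn16*, 91.3 kb away, had values of 9.10 and 8.27, a ratio of 0.909 (0.776 to 1.06) whose interval includes 1. *Cldn23*, a claudin of low level, had 77 reads in WT+AKI against 2 reads in TG+AKI, a ratio of 0.0333 (0.00396 to 0.124). Counts this small in TG+AKI leave the size of that ratio poorly known. The lists held no parietal cell markers, and the 4 markers of podocytes, their neighbours in the glomerulus, were all within 2-fold (summed value 410.6 and 442.1). Injured tubule is the other site of *Cldn1* given above, and all 8 markers of injured proximal tubule were called lower (summed value 12407 and 788). Their part in the *Cldn1* value was not tested.

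*Cldn2*, the cation and water pore of the proximal tubule, had the highest level per kilobase of all claudins in both libraries, 165.9 in WT+AKI against 198.3 in TG+AKI. Its value was 505.1 (21416 reads) in WT+AKI against 603.5 (19986 reads) in TG+AKI, a ratio of 1.19 (1.17 to 1.22) that fell below 1 when the column totals were made equal. *Cldn10* (Gene ID 58187, chr14:118787871-118874525), whose isoforms form an anion pathway in the proximal tubule and a cation pathway in the thick ascending limb, stood at 71.4 (3028 reads) in WT+AKI against 173.1 (5731 reads) in TG+AKI. Its ratio was 2.42 (2.32 to 2.53), and its rank per kilobase among the members went from 13 to 5. The starts of the isoforms lie 67.1 kb apart, and reads counted per gene do not separate them. The ratios of the 8 proximal tubule markers ran from 2.30 (*Slc5a2*) to 13.1 (*Slc7a13*). *Cldn10* lay within that range and *Cldn2* below all 8. *Cldn10* also lay within the range of the 4 markers of the thick ascending limb, from 1.35 (*Umod*) to 21.3 (*Egf*).

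*Cldn16* and *Cldn19* encode the claudins that carry calcium and magnesium across the thick ascending limb. *Cldn19* stood at 29.0 in WT+AKI against 25.5 in TG+AKI, a ratio of 0.881 (0.806 to 0.962). *Cldn16* was given above at a ratio of 0.909, and both were within 2-fold. Of the 4 markers of the thick ascending limb, *Slc12a1* (395.3 and 1049), *Kcnj1* (63.5 and 135.4) and *Egf* (54.3 and 1160) were called higher, while *Umod* had values of 1427 and 1921. Both claudins thus lay below all 4 markers of their segment in ratio. On the deposited scale *Cldn12*, a claudin linked to calcium transport, was at 98.2 and 103.6, a ratio of 1.05 (1.01 to 1.10) that changed direction with the column totals made equal and with the median ratio set to 1. *Cldn5*, the claudin of endothelium, was at 4.98 and 4.68, a ratio of 0.940 (0.759 to 1.16), beside 5 endothelial markers of which none was called (summed value 378.0 and 364.4). *Cldn18*, known from lung and stomach, stood at 10 and 21 reads and did not pass the filter.

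Summed per kilobase, the 21 listed claudins came to 383.9 in WT+AKI against 380.6 in TG+AKI, a ratio of 0.991 on the deposited scale, 0.819 with equal column totals and 0.897 with the median ratio set to 1, while the makeup of the sum differed. *Cldn2* made up 43.2% of it in WT+AKI and 52.1% in TG+AKI. *Cldn4* went from 15.2% to 1.63%, *Cldn1* from 7.32% to 2.01% and *Cldn10* from 8.74% to 21.4%. Within a library, *Cldn10* stood at 0.576 times *Cldn4* per kilobase in WT+AKI and at 13.1 times in TG+AKI, a change of 22.8-fold (20.3 to 25.5). The shares and the ratios taken within a library do not depend on how the libraries were scaled.

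**Figure D3:**
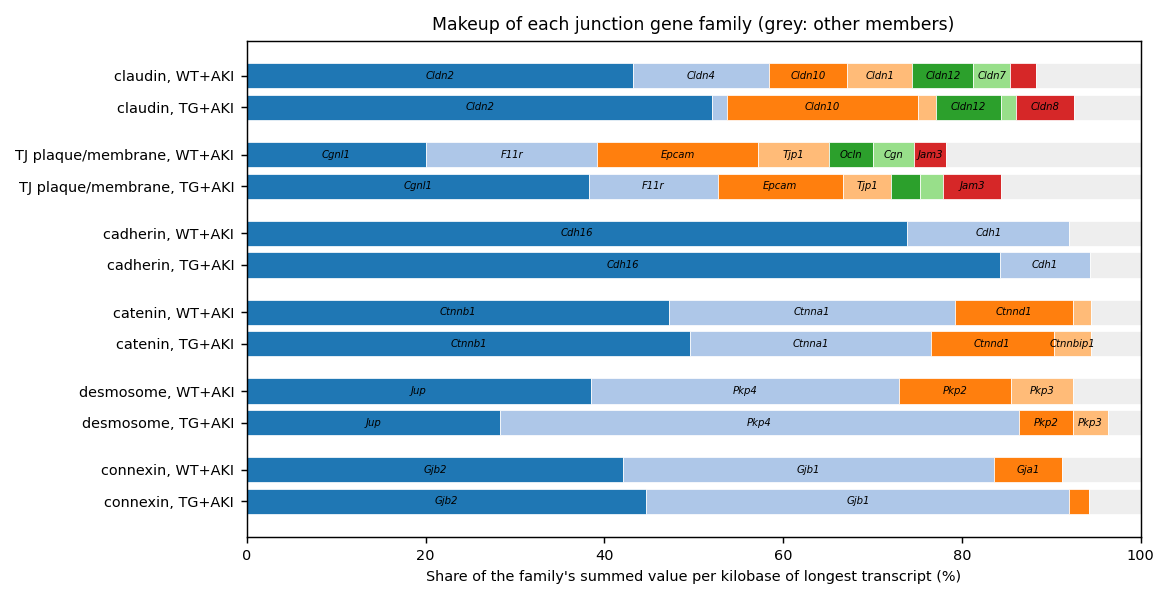
Share of each gene in the summed value per kilobase of its family (percent), with the WT+AKI library above the TG+AKI library in each pair of bars and grey for the other genes; an unlabelled coloured segment is the gene of the same colour in the other bar of the pair. *Cldn4* narrows from 15.2% to 1.63% of the claudin bar, *Cldn10* widens from 8.74% to 21.4%, and *Pkp4* widens from 34.4% to 58.1% of the desmosome bar.

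Among the 13 plaque and membrane genes of the tight junction, all of which were compared, 10 lay below 0 and the median log2 fold change was −0.56. *Jam2* and *Cgn* were called lower and none was called higher, or 15.4% and 0%, beside 7.67% and 5.23% of all genes. *Jam2* (Gene ID 67374), an adhesion molecule known from endothelium, stood at 29.9 (1268 reads) in WT+AKI against 9.36 (310 reads) in TG+AKI, or 3.20-fold lower (2.82 to 3.63). The ratios of the 5 endothelial markers ran from 0.709 (*Flt1*) to 1.65 (*Kdr*). At a ratio of 0.313, *Jam2* lay below all 5. *Jam3*, its relative and binding partner, had values of 15.6 and 25.6, a ratio of 1.65 (1.49 to 1.83). The ratio of *Jam3* to *Jam2* per kilobase was 1.17 in WT+AKI against 6.16 in TG+AKI. Of the *Jam3* exon bases 36.2% overlap a gene on the other strand, and whether the counting used the strand was not stated.

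The plaque proteins also split. *Cgn* encodes cingulin, which links ZO proteins to actin and myosin, and its value was 52.2 (2215 reads) in WT+AKI against 25.2 (835 reads) in TG+AKI, or 2.07-fold lower (1.91 to 2.25). *Cgnl1* encodes paracingulin, the close relative of cingulin, and had values of 305.1 (12936 reads) and 521.1 (17258 reads), a ratio of 1.71 (1.67 to 1.75). Per kilobase *Cgnl1* stood at 4.34 times *Cgn* in WT+AKI and 15.3 times in TG+AKI, a change of 3.54-fold (3.26 to 3.84). *Cgn* shares 11.9% of its 100-base words with *BC021767*, so part of its reads may have been left uncounted or assigned there.

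The ZO scaffolds, which tie claudins and occludin to actin, included *Tjp1* and *Tjp3*. *Tjp1* had values of 125.6 and 77.2 (ratio 0.614, 0.586 to 0.644). *Tjp3* had values of 10.5 and 13.3 (ratio 1.27, 1.11 to 1.45), so that these scaffolds did not share a direction, and *Tjp3* relative to *Tjp1* per kilobase went from 0.195 to 0.401 within the libraries, a change of 2.06-fold (1.79 to 2.37). *Ocln*, which encodes occludin, had values of 45.1 and 26.8 (ratio 0.595), and its neighbour *Marveld2*, 43.2 kb away, encodes tricellulin, the protein of contacts between 3 cells, at 25.1 and 16.5 (ratio 0.656). *F11r*, the gene of JAM-A, had values of 108.6 and 73.5, and *Epcam*, an epithelial adhesion molecule that stabilizes claudins, of 82.8 and 57.4. The remaining *Marveld1* and *Marveld3* stood at log2 fold changes of −0.30 and −0.33.

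The cadherins gave 1 call in each direction among 9 compared, or 11.1% each, beside 5.23% of all genes called higher and 7.67% called lower. *Cdh13* (Gene ID 12554), a cadherin without a cytoplasmic tail that is known from vessels, stood at 4.01 (170 reads) in WT+AKI against 11.7 (389 reads) in TG+AKI, a ratio of 2.93 (2.44 to 3.53). That ratio lay above those of all 5 endothelial markers, the highest being 1.65 (*Kdr*). *Cdh3* (Gene ID 12560, chr8:106510852-106556911), which encodes P-cadherin, stood at 14.8 (629 reads) in WT+AKI against 4.53 (150 reads) in TG+AKI, or 3.28-fold lower (2.74 to 3.94). *Cdh1*, the gene of E-cadherin, lies 46.4 kb from *Cdh3* and had values of 221.7 and 156.8, a ratio of 0.707 (0.684 to 0.732). The neighbours were thus both lower in TG+AKI, 1 of them within 2-fold.

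*Cdh16*, the kidney-specific cadherin of tubule epithelium, held the highest level per kilobase of all 69 members in both libraries, 203.2 in WT+AKI against 293.3 in TG+AKI. Its value was 594.1 (25186 reads) and 857.4 (28394 reads), a ratio of 1.44 (1.42 to 1.47). It stood at 4.06 times *Cdh1* per kilobase in WT+AKI and 8.29 times in TG+AKI, a change of 2.04-fold (1.96 to 2.12), and took 73.9% and 84.2% of the cadherin sum. *Cdh2*, the N-cadherin that proximal tubule cells use, had values of 10.8 and 13.0 (ratio 1.19, 1.04 to 1.36), a direction that changed when the column totals were made equal. *Cdh6*, a cadherin of the developing proximal tubule, had values of 9.93 and 7.31, and *Cdh11*, a cadherin of mesenchyme, of 19.1 and 14.9. *Cdh5*, the cadherin of endothelium, had values of 40.0 and 37.1, a ratio of 0.929 whose interval includes 1, and, like the endothelial markers, was within 2-fold. The 5 markers of fibroblasts and mural cells had a summed value of 410.1 in WT+AKI against 216.1 in TG+AKI, with 2 called lower, and their part in the *Cdh11* value was not tested.

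None of the 6 catenins compared was called, against 5.23% and 7.67% of all genes. *Ctnnb1*, the gene of β-catenin, which joins cadherins and also serves Wnt signalling, had values of 475.5 (20159 reads) and 446.0 (14770 reads), a ratio of 0.938 (0.918 to 0.958). *Ctnna1*, the gene of α-catenin, which couples the complex to actin, had values of 331.7 and 249.4, a ratio of 0.752 (0.732 to 0.773). *Ctnnd1*, the gene of p120-catenin, which holds cadherins at the membrane, had values of 232.0 and 216.2. However, 68.5% of its words are shared with other genes, the readthrough gene *Gm28635* holding the most of them. *Ctnnbip1*, an inhibitor of β-catenin that was picked after its values were seen, stood apart from the other catenins at 15.7 and 27.5 (ratio 1.75, 1.58 to 1.93). Of its exon bases 25.8% overlap a gene on the other strand.

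In the desmosome group, 6 of the 7 genes compared lay below 0, with a median log2 fold change of −0.69. Of the genes compared, 14.3% were called lower and 0% higher, beside 7.67% and 5.23% of all genes. *Dsp* encodes desmoplakin, which anchors keratin filaments, and was called lower, with values of 52.2 (2214 reads) in WT+AKI against 25.2 (835 reads) in TG+AKI, or 2.07-fold lower (1.91 to 2.25). *Pkp2*, a plakophilin of the desmosomal plaque, had values of 50.6 and 25.5 (ratio 0.504, 0.465 to 0.546), and *Dsg2*, the desmoglein of simple epithelia, of 21.5 and 10.9 (ratio 0.506, 0.447 to 0.572). Both lay just short of 2-fold, at log2 fold changes of −0.96 and −0.92, and reached it when the column totals were made equal or the median ratio was set to 1. *Dsc2*, the desmocollin partner, had values of 5.21 and 2.96 (ratio 0.568). *Jup* encodes plakoglobin, which serves both desmosomes and adherens junctions, and had values of 168.9 and 130.2 (ratio 0.771).

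*Pkp4* was the exception, with values of 217.3 (9213 reads) and 385.0 (12750 reads), a ratio of 1.77 (1.72 to 1.82). It belongs to the p120-catenin relatives and is found at adherens junctions as well as desmosomes. Per kilobase it stood at 2.73 times *Pkp2* in WT+AKI and 9.58 times in TG+AKI, a change of 3.51-fold (3.23 to 3.82). *Jup* made up 38.5% and *Pkp4* 34.4% of the desmosome sum in WT+AKI, against 28.3% and 58.1% in TG+AKI. *Krt8* and *Krt18*, simple epithelial keratins among the markers of injured proximal tubule, had values of 296.8 and 42.9 in WT+AKI and of 93.2 and 6.04 in TG+AKI. Their part in the desmosome values was not tested.

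Of the 6 connexins compared, *Gja1* was called lower and none higher, or 16.7% and 0%, beside 7.67% and 5.23% of all genes. *Gja1* encodes connexin 43, and its value was 17.97 (762 reads) in WT+AKI against 7.61 (252 reads) in TG+AKI, or 2.36-fold lower (2.05 to 2.73). *Gjb1* and *Gjb2*, the genes of connexins 32 and 26, which are known from liver and proximal tubule, had values of 40.3 and 68.1 (ratio 1.69, 1.59 to 1.80) and of 61.9 and 97.5 (ratio 1.58, 1.50 to 1.66). Per kilobase *Gjb1* stood at 5.50 times *Gja1* in WT+AKI and 22.0 times in TG+AKI, a change of 3.99-fold (3.42 to 4.67). The 3 vascular connexins were within 2-fold. *Gja4* had values of 2.59 and 3.59, *Gja5* of 4.27 and 4.44 and *Gjc1* of 5.40 and 5.34, and the intervals of *Gja5* and *Gjc1* included 1. The direction of *Gja5* changed with equal column totals and with the median ratio set to 1, and that of *Gjc1* with DESeq2 size factors.

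Over all members, intervals of the ratio included 1 for 7 of the 56 (*Cdh5*, *Ctnnbl1*, *Cldn16*, *Cldn5*, *Cldn34c1*, *Gjc1* and *Gja5*). The 13 members that did not pass the filter had values of at most 0.967. The summed value per kilobase of the 69 members was 1360 in WT+AKI against 1413 in TG+AKI, a ratio of 1.04. By family the ratio of sums was 0.991 for claudins, 0.896 for plaque and membrane genes, 0.893 for catenins, 1.05 for desmosomal genes, 1.27 for cadherins and 1.48 for connexins. With equal column totals the ratios were 0.859 for all members and 0.868 for desmosomal genes, both then on the other side of 1. They were 0.819 for claudins, 0.740 for plaque and membrane genes, 0.738 for catenins, 1.05 for cadherins and 1.23 for connexins. The family medians of the log2 fold change ran from −0.69 for desmosomal genes to 0.20 for connexins, the latter being −0.02 with equal column totals. Within-library ratios between relatives were picked after the values had been seen.

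Of 40 other genes of junctions and cell polarity, 3 were called higher and 6 lower, or 7.50% and 15.0%, beside 5.23% and 7.67% of all genes, with a median log2 fold change of −0.13. *Ppl*, the gene of periplakin, a desmosome-associated plakin, had values of 44.7 and 5.10, and *Perp*, a desmosomal membrane protein and p53 target, of 170.5 and 65.9. *Cxadr*, an adhesion molecule of tight junctions, *Lsr*, a protein of tricellular contacts, *Nectin2*, an adherens junction molecule, and *Panx1*, a channel protein, were also called lower, at 91.8 and 42.7, 67.1 and 31.4, 46.2 and 19.4, and 3.23 and 0.664. The 3 called higher were *Prkcz*, the atypical protein kinase C zeta of the polarity complex, at 42.9 and 107.6, and the scaffolds *Magi1* at 8.77 and 21.7 and *Magi2* at 5.59 and 15.2. *Prkci*, the other atypical protein kinase C, had values of 77.7 and 48.1. Among 13 transcription regulators of the epithelial and mesenchymal states, 10 passed the filter and *Snai3* (2.29 and 0.483) was the only gene called, in the lower direction.

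Of 16 transport genes that work beside the paracellular claudins, several of which are also segment markers, 6 were called higher and 0 lower, or 37.5% and 0%, where 5.23% and 7.67% of all genes were called, with a median log2 fold change of 0.83. They were *Slc12a1*, *Kcnj1*, *Bsnd*, *Casr*, *Slc12a3* and *Aqp1*. *Casr* encodes the calcium-sensing receptor, which acts on the claudins of the thick ascending limb, and had values of 20.6 and 63.4, a ratio of 3.08 (2.85 to 3.34), beside 0.909 for *Cldn16* and 0.881 for *Cldn19*. *Trpv5*, a calcium channel of the distal nephron, had values of 27.2 and 14.6. Of the 5 macrophage markers 4 were called lower (summed value 123.5 and 56.3), of the 5 urothelial markers 2 passed the filter and *Krt5* was called lower (summed value 5.14 and 2.60), and none of the 4 lymphocyte markers passed. The 4 intercalated cell markers had 1 call, higher, and the 3 markers of the distal convoluted tubule 2, both higher.

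**Figure D4:**
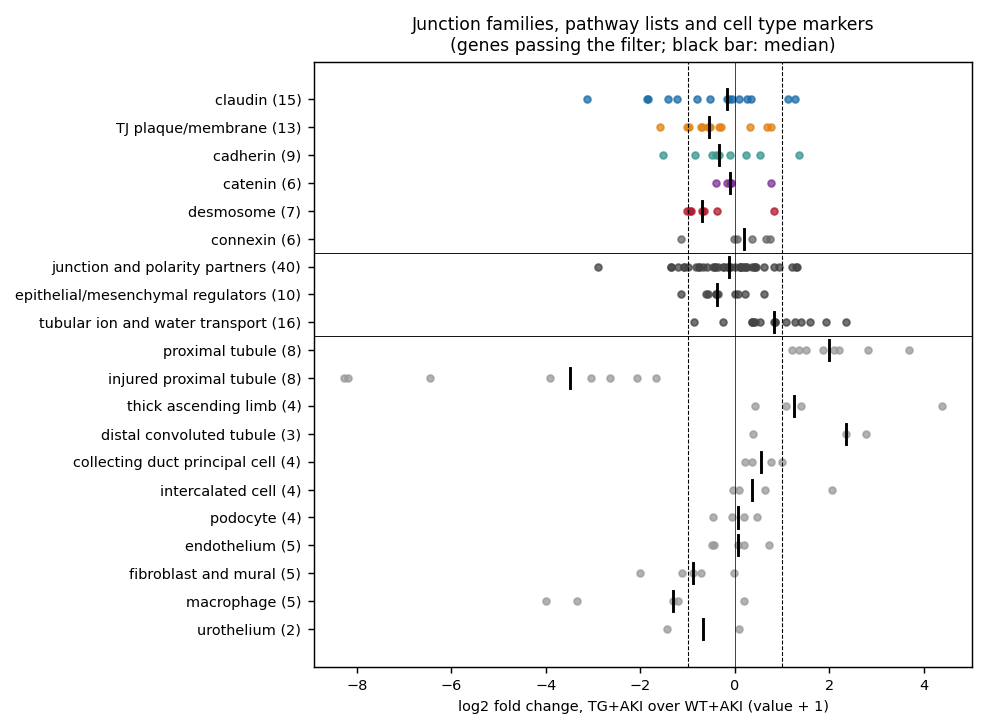
Log2 fold change of TG+AKI over WT+AKI for each gene that passed the filter in the 6 junction families, the 3 lists of related genes and 11 cell type marker lists, with the number of genes in brackets, a black bar at each median and dashed lines at 2-fold. The junction families spread on both sides of 0 with medians from −0.69 to 0.20 (the latter, of the connexins, is −0.02 with equal column totals), while all 8 proximal tubule markers lie above 1 and all 8 markers of injured proximal tubule below −1.

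**Figure D5:**
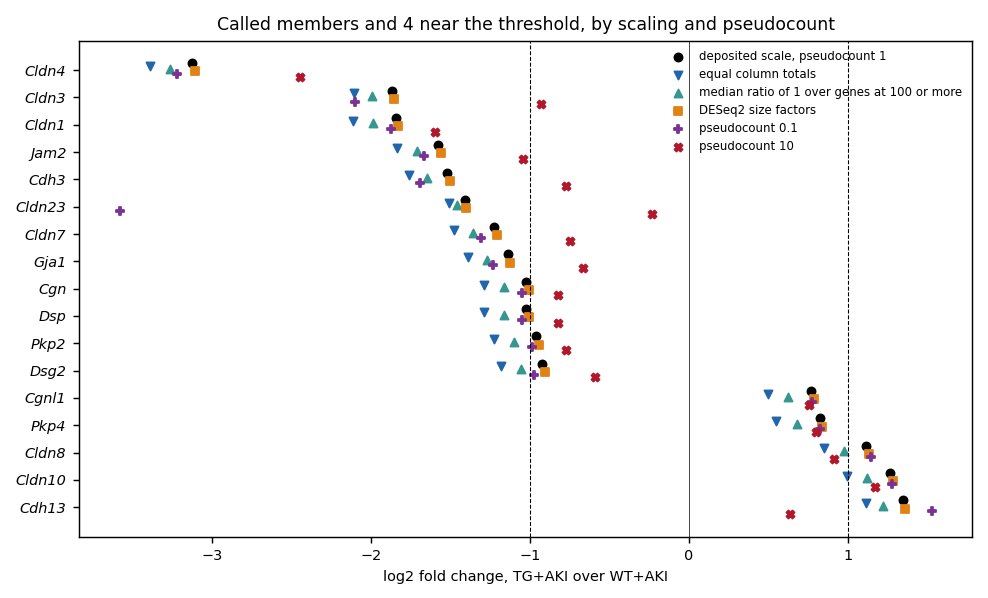
Log2 fold change of TG+AKI over WT+AKI for the 13 called members and 4 near the threshold (vertical axis), under the deposited scale with a pseudocount of 1, 3 other scalings and 2 other pseudocounts, shown by symbol shape and colour, with dashed lines at 2-fold. *Cldn4* stays between −3.39 and −2.45. A pseudocount cannot move a gene across 0, and the scalings moved the median of all genes by far less than 2-fold.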

How the data were processed

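Per the labels, RNA of whole kidneys was made into libraries with a stranded mRNA kit (TruSeq). The methods of the study give 100-base reads, alignment with STAR 2.7.3a, counting per gene with HTSeq and normalization with DESeq2, and the submitters' processing notes also name FastQC, Cufflinks 2.2.1, edgeR and the build mm10. Whether the counting used the strand was not given in the sources used here. The deposited signal values were made by the authors as read counts per gene divided by a scaling factor of each library. Dividing a column by its lowest value gave whole numbers (tolerance 0.01, 100% of values in both libraries), which were taken as the reads, 1 read being worth 0.0236 in WT+AKI and 0.0302 in TG+AKI. Which scaling gave the deposited values was not established. The deposited columns summed to 909104 in WT+AKI and 1.09998e+06 in TG+AKI. The processing notes name edgeR, but whether edgeR scaling gave these sums was not tested. Equal column totals remove this difference in sums between the libraries. DESeq2 size factors recomputed from the reads (1.14 and 0.879) did not match the deposited scaling. They moved the median log2 fold change of all genes by 0.02 and would leave values on the scale of counts. No listed gene was without reads in either library.

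Genes that reached a value of 1 in either library entered the comparison, made on log2(value + 1) and called at 2-fold. Ratios of reads carry 95% Clopper-Pearson intervals, and the intervals of ratios between genes assume Poisson counts, both covering counting error only. The depth behind a value of 1 and the totals are given in the report. A count of 3 reads, taken as the floor, stands for 0.0708 in WT+AKI and 0.0906 in TG+AKI. The reads were compared with an exact conditional binomial test with Benjamini-Hochberg adjustment, which called 10854 of 14997 genes at 0.05, and with 1 library per group no test of the conditions was made. Levels per kilobase used the longest transcript of each gene, known for 69 of 69 members. Sharing of 100-base words with any other gene was taken from these longest transcripts, and the gene named is the one with the most shared words. Exon overlap was taken over the exons of all transcripts of a gene.

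The members, lists and tests were chosen with earlier results of these data known, and the lists support no test. The genes named are the called members that reached 3 in 1 of the libraries, the member with the highest level per kilobase in either library for each family, and a list of members known in the kidney. *Pkp4* and *Gjb1* were highest in their families in TG+AKI only, where their values were higher, while *Jup* and *Gjb2* were highest in WT+AKI. *Jam3*, *Ctnnbip1*, the *Marveld* genes, *Ctnnbl1*, *Cldn34c1*, *Cdh24* and *Cldn6* fall outside the rule and were named after their values were seen. The counts and medians cover all members, and 1 member is not reported here by name. Alternatives were equal column totals, a median ratio of 1 over 1446 genes at 100 or more in both libraries, these DESeq2 size factors, pseudocounts of 0.1 and 10, a filter of 10, no filter and the addition of the binomial test. The calls and intervals were run on simulated Poisson counts with planted changes and no spread between mice. That run checks the computation only and says nothing on calls from 1 library per group. Computation was done in Python 3.11.15 (pandas 2.3.3, numpy 2.4.6, scipy 1.17.1; figures with matplotlib 3.10.9).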

Additional observations from a re-analysis of the deposited data

How the results depend on the processing

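With both libraries at the same column total, 1 member was called higher, the median log2 fold change of the members was −0.60, and 491 of all genes were called higher. With a pseudocount of 10, 1 member was called higher and 3 lower (*Cldn1*, *Cldn4* and *Jam2*), beside 372 and 408 of all genes, and 9 of the 13 called members were under 2-fold on that scale, which draws low values together. With a filter of 10, 733 of all genes were called lower, fewer genes (10294) being compared. With a pseudocount of 0.1 the members called were 3 higher and 12 lower, with 1053 and 1578 of all genes. With DESeq2 size factors, no filter or the binomial test added, 3 members were called higher and 10 lower. These were 5.36% and 17.9% of the members compared, or 4.35% and 14.5% with no filter. Of all genes, the shares were 5.38% and 7.53%, 3.95% and 5.80%, and 5.23% and 7.67%, in that order. Dropping the filter could not change the calls, since a gene under 1 in both libraries cannot reach 2-fold on the log2(value + 1) scale. The binomial test left every call in place. Leaving out members that share sequence or exons with another gene, a step chosen after the data were seen, left 42 members. Of these, 3 were called higher and 7 lower, or 7.14% and 16.7%, beside 5.23% and 7.67% of all genes. The unchanged direction of the 13 called members under these settings is no check. A pseudocount cannot alter the sign, and the scalings moved the median of all genes by far less than 2-fold. No paired analysis was possible because each group had 1 library. Differences between mice, the time of collection and a change in cell makeup could not be separated from genotype, and members with few reads (*Cldn23*, 2 in TG+AKI) are limited by depth.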
